A study of Mus musculus with 10 samples.

Results

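The C-type lectin receptors of the Clec gene families were compared between aneurysmal and sham-operated mouse aorta. All gene names on the array that are written as Clec followed by a number, a letter and an optional second number were taken, which gave 32 Clec names, read by 41 probes, out of 35527 gene names on the array. The tissue was the infrarenal abdominal aorta of male C57BL/6J mice, operated on at 10 weeks of age and sampled 7 days later. In the PPE group (n = 5) the vessel was filled for 5 min at 100 mmHg with saline holding porcine pancreatic elastase at 1.5 U/mL, an enzyme that breaks down the elastin of the wall and starts an abdominal aortic aneurysm (AAA). The sham group (n = 5) had the same operation with saline alone. Each array carried the unpooled RNA of 1 aorta in its red (Cy5) channel and a commercial universal mouse reference RNA in its green (Cy3) channel. A value is therefore a log2 ratio of aorta over reference, where 0 means an equal signal in both channels, and a difference between groups is a difference of such ratios.

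Clec proteins carry a C-type lectin-like domain, a fold first known from proteins that bind sugars in the presence of calcium. Many sit on macrophages, monocytes, neutrophils and dendritic cells, where they bind fungal or bacterial sugars and lipids or material released from dead cells, and signal either through partners that carry an activating motif, such as Fcer1g and Tyrobp, to the kinase Syk and the adaptor Card9, or through an inhibitory motif of their own. Others belong to endothelial cells, platelets or the extracellular matrix, and those of the Clec2 group are ligands for receptors of natural killer cells. The members were therefore described as a myeloid set by name (Clec4, Clec5, Clec7 and Clec12 genes, 15 names), an endothelial and stromal set (6 names), the Clec2 set (7 names) and 4 others. Clec4g and Clec4f fell into the myeloid set by name, although the first is known from the endothelium of liver sinusoids and the second from the resident macrophages of the liver.

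Of the 32 names, 22 had a probe that stood clearly out of the background in the red channel of 5 or more of the 10 arrays and were tested. In the PPE aorta 10 of the 22 were higher than in sham and 0 were lower at a limma adjusted p under 0.01, and 12 were not called. Over all 22520 names tested, 13.8% were higher and 9.96% were lower. The count of 0 lower Clec genes has beside it 3 members below sham by estimate, of which Clec16a and Clec3b had unadjusted limma p-values of 0.0164 and 0.0405. For 9 of the 22, every PPE value was above every sham value, as it was for 14.9% of all names. With each array centred on its median in place of the loess curve, 4 of the 22 passed (Clec4d, Clec7a, Clec4a3 and Clec4e), and 1.81% of all names were higher. The median log2 difference was 1.02 over the tested Clec genes and 0.02 over all names tested. Of the 10 tested myeloid members 8 were higher, and so were 2 of the 12 other tested members. The median log2 difference was 2.32 in the myeloid set, ranging from 0.19 to 5.74, and 0.31 in the others, ranging from -0.60 to 2.44. One called gene, Clec4a4, passed the filter only through the PPE arrays, so its call was bound to be an increase. Without it 9 of 21 tested Clec genes and 7 of 9 tested myeloid genes were higher, with medians of 1.01 and 2.40. In whole tissue, more cells of a type and more RNA per cell cannot be told apart.

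**Figure D1:**
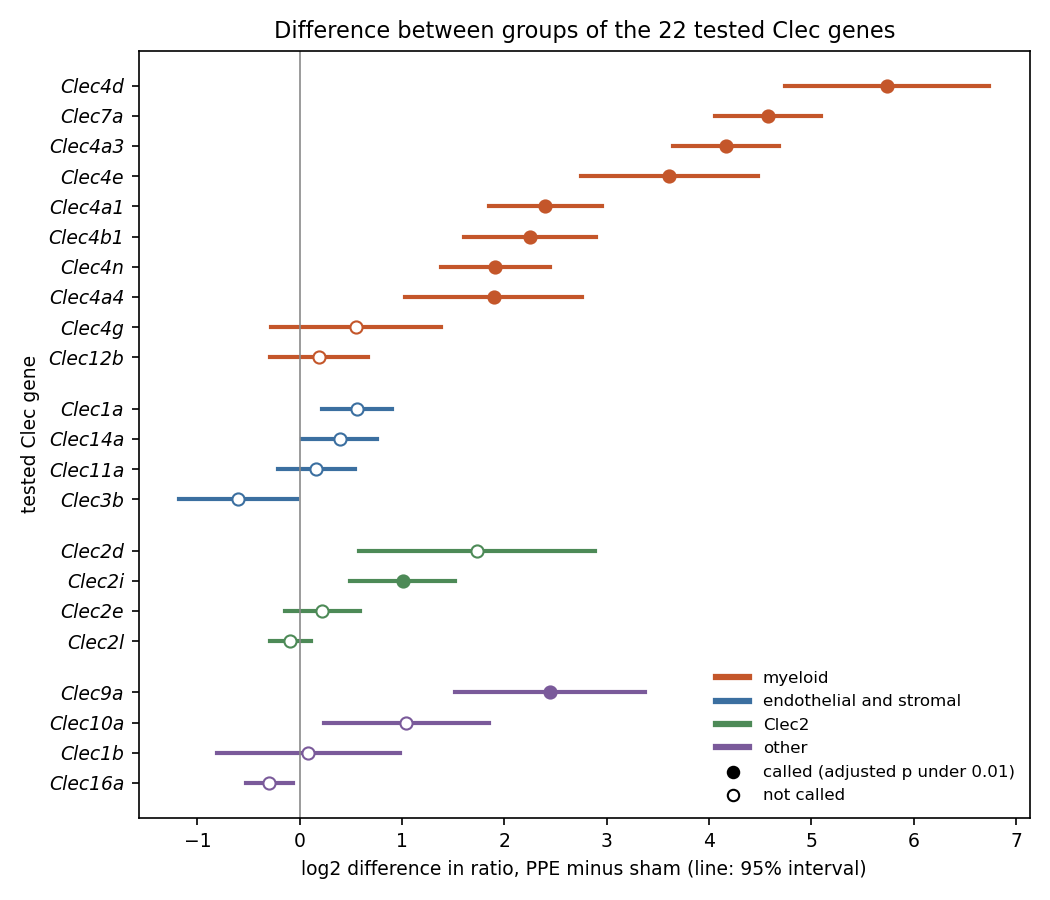
Log2 difference of the aorta over reference ratio, PPE minus sham, for each of the 22 tested Clec genes (5 arrays a group), grouped by set. Points are the estimates, lines their 95% intervals from limma, and filled points passed an adjusted p of 0.01. The 8 filled myeloid genes lie between 1.89 and 5.74, and the 4 endothelial and stromal genes between -0.60 and 0.56.

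Some facts of the arrays bear on these values. The share of spots with a red signal well above background lay between 37.6% and 65.8%, lowest on sham 5 and highest on PPE 1. The arrays fell on 5 slides. Sham 1, PPE 1 and PPE 2 shared slide 1, whose scan fell on a day of its own. Sham 2 and 3 shared slide 2 with PPE 3 and 4, and the other slides held 1 array each. Smooth muscle genes that define the vessel wall, such as Acta2 and Tagln, were well above background on all 10 arrays. Of 8 smooth muscle genes 6 were lower in PPE, beside 9.96% of all names, with a median log2 difference of -1.81. With median centring 0 passed and the median was -0.96, and 8 of all 22520 names were lower. The design names 1 aorta per array, so the p-values measure the spread between mice together with that between arrays, slides and scan days.

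On the log ratio, the 4 largest differences were those of Clec4d, Clec7a, Clec4a3 and Clec4e. In the red channel alone, examined after the values were seen and normalized without the reference, the order was Clec4d (5.39), Clec4n (4.52), Clec7a (4.29), Clec4a1 (3.76), Clec4a3 (3.75) and Clec4e (3.51). The sequences just before the transcription start of the 4 genes largest on the log ratio are shown. The letters of known myeloid transcription factor sites, such as that of PU.1, could be looked for in them. Clec4n and Clec4a1, also among the largest in the red channel alone, are not shown. The sequences are the 250 bases upstream of the RefSeq start on GRCm38.p6, 5′ to 3′ on the strand of the gene. Capitals mark GAGGAA on either strand (PU.1) and, in Clec4e, also TTGCNNAA on either strand (C/EBP). Clec4d is at chr6:123261857-123262106 (plus strand), Clec7a at chr6:129472780-129473029 (minus strand), Clec4a3 at chr6:122952265-122952514 (plus strand) and Clec4e at chr6:123289872-123290121 (minus strand).
Clec4d: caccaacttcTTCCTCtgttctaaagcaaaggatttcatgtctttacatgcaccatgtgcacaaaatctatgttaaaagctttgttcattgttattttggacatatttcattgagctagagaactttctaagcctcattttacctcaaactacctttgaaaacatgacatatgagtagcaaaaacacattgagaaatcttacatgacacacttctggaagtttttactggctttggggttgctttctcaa
Clec7a: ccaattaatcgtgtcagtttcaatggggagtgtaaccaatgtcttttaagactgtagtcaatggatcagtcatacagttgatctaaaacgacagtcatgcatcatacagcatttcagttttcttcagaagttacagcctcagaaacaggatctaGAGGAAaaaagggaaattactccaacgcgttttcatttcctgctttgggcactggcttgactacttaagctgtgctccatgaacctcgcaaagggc
Clec4a3: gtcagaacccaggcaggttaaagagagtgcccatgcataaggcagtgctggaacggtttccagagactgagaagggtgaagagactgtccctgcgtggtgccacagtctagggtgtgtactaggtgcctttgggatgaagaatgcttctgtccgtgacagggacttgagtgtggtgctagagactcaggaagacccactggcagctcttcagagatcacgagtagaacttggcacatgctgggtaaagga
Clec4e: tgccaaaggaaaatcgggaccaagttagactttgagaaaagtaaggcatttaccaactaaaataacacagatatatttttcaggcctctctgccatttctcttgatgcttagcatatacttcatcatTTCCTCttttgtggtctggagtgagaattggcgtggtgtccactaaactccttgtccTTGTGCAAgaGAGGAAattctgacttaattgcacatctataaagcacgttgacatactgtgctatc

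Clec4d, Clec7a and Clec4e hold the PU.1 letters in this window and Clec4a3 does not, although the window of a second, downstream start of Clec4a3 does. RefSeq promoters were found for 25 of the 32 members, including 8 of the 10 called. GAGGAA was present in 5 of the 8 called and in 8 of the 17 other members, and in 23.3% of all 32851 promoters searched. TTGCNNAA was present in 1 of the 8 and 3 of the 17 (9.56% of all promoters), the AP-1 letters TGANTCA in 0 and 5 (6.75%), and the NF-κB letters, GGGA and TTCC with 2 bases between, in 0 and 1 (1.21%). A match is a description of the letters and not evidence of a bound site, and binding was not measured.

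Clec4d (also called MCL or dectin-3), a receptor for mycobacterial glycolipid that works with Mincle, had the largest difference of the family. Its log2 ratios were -4.58, -3.66, -3.38, -3.89 and -2.40 on sham 1 to 5, and 3.08, 1.05, 1.86, 3.06 and 1.74 on PPE 1 to 5. All 5 PPE aortas lay above the reference and all 5 sham aortas far below it. The difference was 5.74 ± 0.45 (log2, SE, n = 5 a group; a ratio of 53.5), with a limma adjusted p of 3.62e-06, and it ranked 5 among all increases.

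Clec4e, or Mincle, recognises mycobacterial cord factor and the nuclear protein Sap130 released by dying cells, and lies next to Clec4d on the chromosome. Its ratios were -3.49, -2.68, -3.05, -2.67 and -2.33 on sham 1 to 5 and 1.93, -0.07, 0.35, 1.58 and 0.05 on PPE 1 to 5. As for Clec4d, PPE 1 and PPE 4 were the highest arrays, and no PPE array came near the sham range. The difference was 3.61 ± 0.39 (limma adjusted p 3.38e-05), a ratio of 12.2. Within an array, Clec4d minus Clec4e was higher in every PPE than in any sham aorta, by 2.13 in the means.

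Clec7a, or dectin-1, is the receptor for fungal beta-glucan and signals to Syk and Card9 through a motif in its own tail. Its ratios were -1.40, -0.94, -1.08, -0.90 and -0.47 on sham 1 to 5 and 4.15, 3.38, 3.01, 4.07 and 3.50 on PPE 1 to 5. Every sham value was below the reference and every PPE value well above it. The difference was 4.58 ± 0.23 (limma adjusted p 3.26e-07), a ratio of 23.9, and ranked 22 among all increases.

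Clec4n, or dectin-2, binds fungal mannans and signals through Fcer1g. On sham 1 to 5 its ratios were 1.29, 1.07, 1.16, 1.47 and 1.23, and on PPE 1 to 5 they were 3.18, 3.75, 2.64, 2.48 and 3.71. The groups did not overlap, and the difference was 1.91 ± 0.24 (limma adjusted p 9.97e-05). Here the reference channel moved too. Its log2 signal, centred on the median of each array, lay between 0.48 and 0.96 on the sham arrays and between 2.87 and 5.66 on the PPE arrays, although the same reference RNA was used. That difference of 3.55 ranked 2 among the 22520 names, of which 97% differed by less than 0.5. In the red channel alone Clec4n was higher by 4.52 (limma adjusted p 6.4e-08), a ratio of 23.0 in place of the 3.76 of the log ratio. The part of the reference signal in the smaller ratio was not tested.

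**Figure D2:**
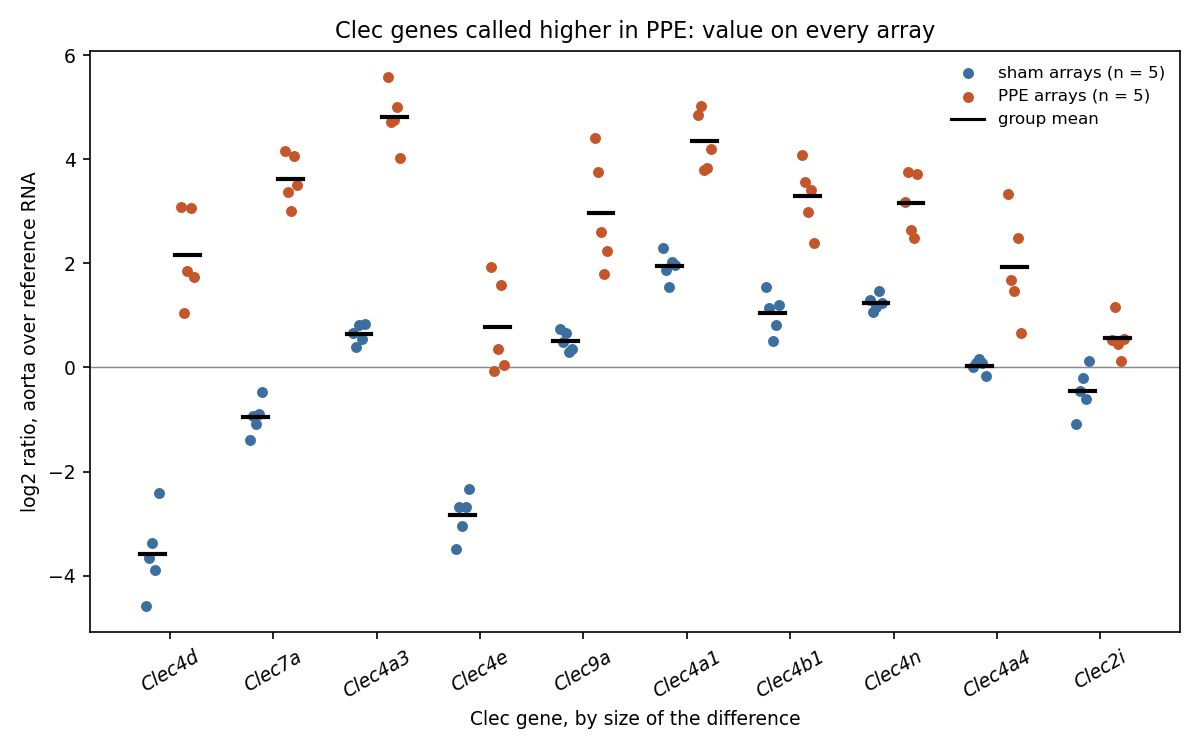
Log2 ratio of aorta over reference on each of the 5 sham (blue) and 5 PPE (orange) arrays for the 10 called Clec genes, with black lines at the group means. The groups separate without overlap for 9 of the 10 genes, and for Clec2i the highest sham array (0.13) lies above the lowest PPE array (0.11). The genes were called on these same values, so this count is a description and not a test. Over all names tested, 14.9% had every PPE value above every sham value. Clec4a4, among the 9, was above background in PPE only. In the red channel alone the groups overlap for Clec9a and Clec2i.

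The Dcir and Dcar genes, Clec4a1 to Clec4a4 and the pair of Clec4b genes, are close relatives in mice. Clec4a2 and Clec4a4 carry an inhibitory motif and the Clec4b proteins pair with Fcer1g. Because they resemble one another in sequence, a probe may read more than its own gene, and values of single members are uncertain to that degree. Clec4a3 had ratios of 0.67, 0.39, 0.81, 0.55 and 0.83 on sham 1 to 5 and 5.58, 4.72, 4.75, 5.01 and 4.02 on PPE 1 to 5. The sham aortas lay within a narrow band near the reference and every PPE aorta lay far above it, by 4.16 ± 0.24 (limma adjusted p 5.31e-07; a ratio of 17.9).

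Clec4a1 had ratios of 2.30, 1.88, 1.54, 2.02 and 1.97 on sham 1 to 5 and 4.86, 5.02, 3.80, 3.84 and 4.19 on PPE 1 to 5. The gene was already above the reference in sham and rose without overlap by 2.40 ± 0.25 (limma adjusted p 2.55e-05). Its reference signal was between 0.79 and 1.04 in sham and between 1.66 and 3.82 in PPE, a difference of 2.09 that ranked 23 among all names, and the red channel alone gave 3.76 (limma adjusted p 1.79e-07). As for Clec4n, the part of the reference in this was not tested.

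Clec4b1, an activating member, had ratios of 1.54, 1.15, 0.51, 0.81 and 1.19 on sham 1 to 5 and 4.09, 3.56, 2.99, 3.41 and 2.38 on PPE 1 to 5. The groups did not overlap, and the difference was 2.25 ± 0.29 (limma adjusted p 1.21e-04). A second, dimmer probe of the gene differed by 1.48. The reference signal was higher by 0.67 in PPE, and with the scanner's own processed signals the difference was 0.72 and was not called (limma adjusted p 0.0503).

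Clec4a4, known from a subset of dendritic cells, was not well above background on any sham array and was on all 5 PPE arrays. Its ratios were 0.01, 0.08, 0.17, 0.08 and -0.17 on sham 1 to 5 and 3.33, 1.69, 1.47, 2.49 and 0.66 on PPE 1 to 5. The sham values are those of a dim spot in both channels, so the change can be given only as a lower limit, at least 2.61-fold on channel values after loess (limma adjusted p 0.00288 for the ratio). In the red channel normalized alone the measured ratio of the means was 2.44, so the bound depends on the scaling. PPE 1 was the highest and PPE 5, the PPE array with the smallest share of spots above background, the lowest.

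The 7 called myeloid genes above background in both groups differed among themselves in how far they rose. Of their 21 pairs, 11 had a within-array difference of log ratios that did not overlap between the groups. In the red channel alone 9 did so. For 5 pairs both held in the same direction. Examples were Clec4d against Clec4e (2.13 on the ratio and 1.89 in the red channel) and Clec7a against Clec4b1 (2.33 and 2.40). All of these 5 pairs hold Clec4d or Clec4b1, so they are not independent. Of the 5, Clec4d against Clec4a1 overlapped on channel values after loess. The genes were chosen and ordered by these same values, so the counts are a description and not a test. Of the 6 pairs that are neighbours in the order of the log ratio differences 0 were separated on the ratio, so that order is not resolved from one gene to the next. The pairs with Clec4n and Clec4a1 moved most between the channels, as Clec4d against Clec4n (3.83 on the ratio and 0.87 in the red channel). PPE 1 was the highest PPE array for 7 of the 10 called genes and PPE 2 for the other 3. Both were on slide 1. The difference within slide 1 (1 sham against 2 PPE) ranged from 1.92 for Clec2i to 6.65 for Clec4d, and within slide 2 (2 against 2) from 0.62 for Clec2i to 5.98 for Clec4d, so each called gene was higher within both slides.

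The remaining myeloid names were at the lower limit of the arrays. Clec5a (MDL-1), which pairs with Tyrobp and is known from monocytes and neutrophils, was above background on 4 PPE arrays and 0 sham arrays, which is 1 array short of the number required for testing. Its ratios were -0.06, -0.18, 0.03, 0.02 and -0.22 on sham 1 to 5 and 1.55, 0.54, 0.82, 1.40 and 0.06 on PPE 1 to 5. PPE 5 was close to the highest sham array, and in the red channel alone the groups overlapped, with PPE 5 inside the sham range. On channel values after loess the mean was at least 1.54-fold higher. Clec12a, an inhibitory receptor that binds uric acid crystals, was above background on 2 PPE and 0 sham arrays, at least 1.16-fold higher on channel values after loess. In the red channel alone its groups overlapped (log2 signal from 6.14 to 6.39 in sham and from 6.36 to 6.72 in PPE). Clec4a2 was above background on 3 PPE and 1 sham array, Clec4b2 on 1 PPE array, and Clec4f on 0 arrays. Clec12b, an inhibitory receptor, was tested and not called, with sham ratios from 0.21 to 0.96, PPE ratios from 0.02 to 1.06 and a difference of 0.19 (95% interval -0.29 to 0.66). Clec4g was likewise not called, at 0.55 (-0.29 to 1.38), and its PPE mean rested on PPE 2 at 2.32, while the other PPE arrays lay between 0.09 and 0.64.

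Among the other members, Clec9a (DNGR-1) marks the dendritic cells that take up dead cells and binds the actin filaments they expose. Its ratios were 0.74, 0.49, 0.66, 0.30 and 0.36 on sham 1 to 5 and 4.40, 3.75, 2.60, 1.80 and 2.23 on PPE 1 to 5. PPE 1 and PPE 2, both on slide 1, were the highest, and the lowest PPE aorta was still above every sham aorta. The difference was 2.44 ± 0.42 (limma adjusted p 8.57e-04), with 3.33 within slide 1 and 1.62 within slide 2. The reference signal of Clec9a stood apart on 1 sham array, sham 4, at 1.34 against values between -0.84 and -0.56 on all others. In the red channel alone the difference was 1.45 (limma adjusted p 0.00113) and the groups overlapped. Of other genes of this kind of dendritic cell, Batf3, a transcription factor they need, was higher by 1.47 (limma adjusted p 1.68e-04), and the receptor Xcr1 was above background on 2 PPE and 0 sham arrays and was not tested. In the wider dendritic list 4 of 7 tested genes were higher. Its genes Zbtb46 (-0.24), H2-Ab1 (0.47) and Cd209a (1.02) were not called (limma adjusted p 0.159, 0.247 and 0.044).

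Clec10a (MGL1), a galactose-binding lectin of macrophages, was high over the reference in both groups. Its ratios were 5.46, 5.09, 4.26, 4.51 and 5.46 on sham 1 to 5 and 6.56, 6.79, 5.33, 5.01 and 6.30 on PPE 1 to 5. The groups overlapped, and the difference of 1.04 ± 0.37 was not called (limma adjusted p 0.0463). Its reference signal was higher in PPE by 0.84, and in the red channel alone the gene was higher by 1.46 and passed the threshold (limma adjusted p 3.69e-04). Its neighbour in function, the macrophage galactose lectin Mgl2, was at 0.51 and not called (limma adjusted p 0.013).

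**Figure D3:**
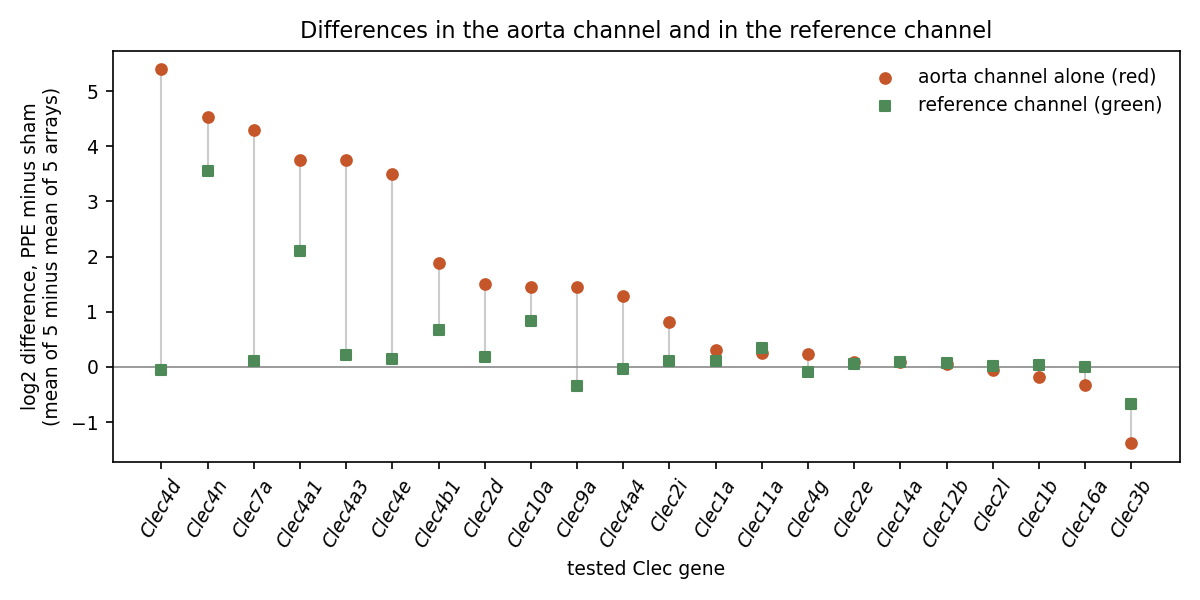
Log2 difference between the means of the 5 PPE and 5 sham arrays in the red channel alone (orange circles, quantile normalized) and in the reference channel (green squares, centred on each array's median) for the 22 tested Clec genes. The reference differs by 3.55 for Clec4n, 2.09 for Clec4a1 and 0.84 for Clec10a, and by -0.67 for Clec3b, whereas for Clec4d and Clec7a it differs by -0.06 and 0.12.

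Clec1b (CLEC-2) is the platelet receptor for podoplanin. The 3 probes of Clec1b differed by 0.08, -0.09 and 0.15, and the one used had sham ratios from 0.49 to 2.05 and PPE ratios from 0.16 to 1.97. Sham 1, PPE 1 and PPE 4 were the highest arrays, so both groups held high and low values. The 95% interval of the difference ran from -0.81 to 0.98. Of 7 platelet genes 0 were called by limma (Pf4 had the smallest adjusted p, 0.113), beside 13.8% higher and 9.96% lower over all names. Their median was -0.14, and 0.11 with median centring. Pdpn, the ligand of Clec1b carried by fibroblasts, macrophages and lymphatic endothelium, was higher by 2.45 (limma adjusted p 9.12e-07). Clec16a, an intracellular protein of endosomes and mitophagy rather than a receptor, was lower by estimate, other than with median centring, where it stood at 0.15. Its sham ratios lay between -0.55 and -0.36 and its PPE ratios between -0.97 and -0.63. The groups did not overlap, but the difference of -0.30 was not called (limma adjusted p 0.0475).

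None of the endothelial and stromal members was called by limma (0 of 4 tested), although Clec1a, Clec14a and Clec3b had unadjusted p-values of 0.0041, 0.0388 and 0.0405. Over all names tested 13.8% were higher and 9.96% lower, so 0 of 4 does not show this set to be unchanged. Clec1a, an endothelial receptor, had ratios of 0.54, 0.40, 0.55, 0.40 and 0.69 in sham 1 to 5 and 1.38, 1.29, 0.91, 1.22 and 0.56 in PPE 1 to 5. The first 4 PPE aortas lay above all sham aortas and PPE 5 lay among them. The difference was 0.56 ± 0.16 (limma adjusted p 0.0154) and passed the threshold without PPE 5 (0.69, limma adjusted p 0.0012) or with the slide as a block (0.67, limma adjusted p 0.00421). In the red channel alone it was 0.30 (limma adjusted p 0.203).

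Clec14a, which marks the endothelium of forming vessels, differed by 0.39 (95% interval 0.02 to 0.76; limma adjusted p 0.0937), with sham ratios from 1.32 to 1.82 and PPE ratios from 1.61 to 2.34. Its matrix ligand Mmrn2 was at 0.03 (limma adjusted p 0.94). Of 10 endothelial genes 0 were called by limma (Cdh5, at 1.17, had the smallest adjusted p, 0.0167), beside 13.8% higher and 9.96% lower over all names. Their median was 0.15, and -0.18 with the scanner's processed signals. In the red channel alone 3 of 10 were higher, beside 12.5% of all names. Clec11a, a secreted growth factor for bone-forming cells, differed by 0.16 (-0.21 to 0.54), while its receptor subunit Itga11 was higher by 2.20 (limma adjusted p 3.36e-05).

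Clec3b (tetranectin), a secreted plasminogen-binding protein of fibroblasts, was the lowest member by estimate, other than with median centring, where it stood at 0.10. Its ratios were 4.27, 3.95, 3.66, 4.12 and 4.17 in sham 1 to 5 and 4.03, 4.17, 2.91, 2.98 and 3.06 in PPE 1 to 5. PPE 1 and PPE 2, on slide 1, lay among the sham aortas and the other 3 PPE aortas lay below them all. The difference was -0.60 ± 0.26 and not called (limma adjusted p 0.0969). It was -0.17 within slide 1 and -0.86 within slide 2. With the scan day as a block it was called lower, at -0.76 (limma adjusted p 0.0037), and so it was in the red channel alone, at -1.38 (limma adjusted p 0.0019), with a reference signal lower by 0.67 in PPE. Of 6 fat cell genes, Ucp1 was called lower (-2.94, limma adjusted p 7.14e-04) and 5 were not called, beside 9.96% lower over all names. Their median was -0.74 (0.05 with median centring). In the red channel alone all 6 were lower, beside 2751 of all 22520 names. The part of the fat cell genes in the value of Clec3b was not tested. The cartilage relative Clec3a and Clec18a were above background on 0 arrays.

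In the Clec2 set, Clec2d (Clr-b) is the ligand of the inhibitory natural killer receptor Klrb1b. Its ratios were -2.05, 0.30, -0.27, -2.22 and 0.57 in sham 1 to 5 and 1.43, 0.27, 1.02, 1.18 and 1.07 in PPE 1 to 5. Sham 1 and sham 4 stood far below the other 3 sham aortas, which came close to or into the PPE range. The difference of 1.73 ± 0.53 was not called (limma adjusted p 0.024) and passed the threshold without sham 5 (2.06, limma adjusted p 0.00861). Clec2i (Clr-g), a ligand of other Klrb1 receptors, had ratios of -1.08, -0.46, -0.20, -0.60 and 0.13 in sham and 0.53, 1.16, 0.46, 0.11 and 0.55 in PPE. The highest sham and the lowest PPE aorta were close, and the difference of 1.01 ± 0.23 was called (limma adjusted p 0.00581). That call was lost when any of 7 of the 10 arrays was left out, with differences from 0.85 to 1.03 (limma adjusted p up to 0.0173), and with the slide as a block (limma adjusted p 0.0194).

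Clec2e, at 0.22, and Clec2l, a gene known from the brain, at -0.09, were not called. Clec2j was above background on 1 sham array, and Clec2g and Clec2h on 0 arrays. On the receptor side Klrb1f was higher by 2.04 and Klrb1c by 2.16 (limma adjusted p 2.41e-04 and 0.00101). Klrb1b was above background on 0 sham and 5 PPE arrays and so entered the test only through PPE, with mean ratios of 0.25 and 2.77 (limma adjusted p 4.89e-04) and at least 5.34-fold more red signal.

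Most members lie on 1 chromosome. On chromosome 6 (mm9) were 24 of the 32, 16 of them tested and 10 called. Of the 6 tested members elsewhere 0 were called. Over all names tested 13.8% were higher and 9.96% lower, so 0 of 6 does not set these members apart. Among them Clec10a, Clec14a, Clec16a and Clec3b had unadjusted limma p-values of 0.0159, 0.0388, 0.0164 and 0.0405. All myeloid names but Clec4g lie on chromosome 6, so this split largely repeats the split by set. The 9 Clec4 genes from Clec4a1 to Clec4e follow each other within 348 kb (chr6:122884578-123232937). All 7 tested genes of this run were called higher, Clec4a4 among them having passed the filter only through PPE, and the 2 others, Clec4a2 and Clec4b2, were too dim. The next run holds 6 Clec2 genes, of which 1 of 3 tested was called. The last run, 97 kb from Clec12a to Clec7a, is set apart by gene name and holds both called and not called genes. It begins 178.5 kb after Clec2d, less than the 220 kb between Clec2h and Clec2i. Clec7a and Clec9a were called, and Clec1a, which lies between them, as well as Clec12b and Clec1b, were not.

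**Figure D4:**
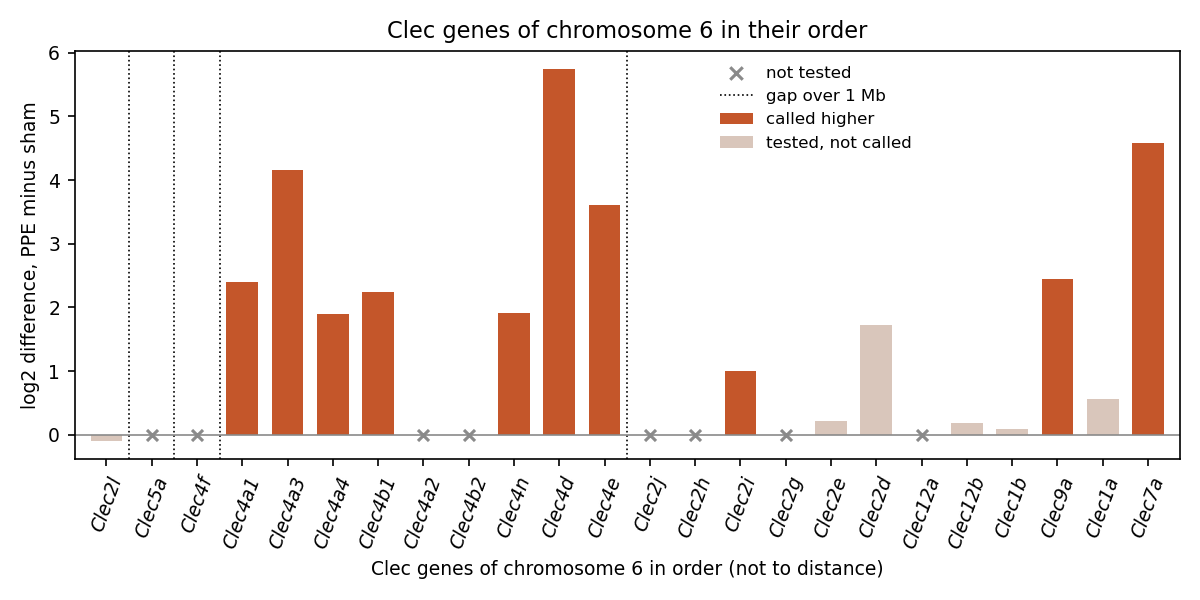
Log2 difference, PPE minus sham, of the Clec genes of chromosome 6 in their order along it, evenly spaced. Orange bars were called higher, pale bars tested and not called, crosses not tested, and dotted lines mark gaps of over 1 Mb. The run from Clec4a1 to Clec4e holds 7 called genes, of which Clec4a4 was above background in PPE only. Among the genes from Clec12a to Clec7a, Clec9a and Clec7a stand at 2.44 and 4.58 beside Clec1a at 0.56.

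The signalling partners of these receptors were read next. Of 20 tested genes of the shared pathway, 17 were higher and 1 was lower, with a median log2 difference of 1.68. With median centring 7 were higher and 0 lower, with a median of 2.21. Over all names 13.8% were higher and 9.96% lower, and with median centring 1.81% were higher. The activating adaptors Fcer1g, Tyrobp and Hcst were higher by 3.81, 2.87 and 2.59 (limma adjusted p 2.34e-06, 2.43e-06 and 9.89e-06). Syk was higher by 2.04 (limma adjusted p 6.47e-06), and of the complex that carries its signal on, Bcl10 was higher by 1.30 and Malt1 by 1.18, while Card9, not above background on any sham array, was at 0.60 and not called (limma adjusted p 0.0151). Of the phosphatases that inhibitory receptors recruit, Ptpn6 was higher by 3.42 and Inpp5d moved from a mean of -0.71 in sham to 2.29 in PPE (limma adjusted p 2.75e-07), and Ptpn11 was the gene that was lower, at -0.76 (limma adjusted p 0.00201). Among 8 tested ligands and partners 6 were higher (1 with median centring), and the Mincle ligand Sap130 was at 0.04 (limma adjusted p 0.8). Klrb1b, 1 of the 6, was above background in PPE only, so its call was bound to be an increase.

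C-type lectins that carry other names were read beside them. Of 23 tested, 9 were higher and 0 were lower, with a median of 0.56, beside 13.8% higher and 9.96% lower over all names. With median centring 2 were higher, beside 1.81% of all names. The count of 0 has beside it Thbd at -0.47, with a limma adjusted p of 0.042. In the red channel alone 3 of the 23 were lower, beside 2751 of all 22520 names. Cd72 was higher by 3.55, the oxidised LDL receptor Olr1 by 2.01 and the macrophage mannose receptor Mrc1 by 1.21 (limma adjusted p 4.13e-06, 1.02e-04 and 0.00346). The Cd209 genes, relatives of DC-SIGN, lay between -0.92 and 1.02 and were not called.

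Markers of the cells that carry the myeloid Clec receptors were mostly higher too. The mean log2 ratio of the macrophage list (7 of 10 genes higher) lay between 0.35 and 0.66 in sham and between 2.12 and 3.44 in PPE. The neutrophil list (8 of 10 higher) went from 0.29 to 0.47 in sham to between 2.37 and 3.90 in PPE, the monocyte list (4 of 5 higher, Nr4a1 lower) from between 0.87 and 1.02 to between 2.99 and 3.54, and the dendritic list (4 of 7 higher) from between 0.78 and 1.03 to between 1.93 and 3.03. For natural killer cells 4 of 6 genes were higher and with median centring 0 of 6, and 2 of the 4, Klrk1 and Eomes, were above background in PPE only. The resident macrophage genes Cd163 and Mertk were at -0.46 and -0.30 and not called. Cd163 was above background on 4 sham and 2 PPE arrays. In the red channel alone 1 of the 10 macrophage genes was lower, beside 2751 of all 22520 names. The neutrophil genes Csf3r and Elane were at -0.08 and 0.59 and not called (limma adjusted p 0.674 and 0.0906). Cxcr2, Ltf and Mpo, among the 8 called, were above background on 1 sham and 5 PPE arrays. The neutrophil granule genes Mmp8 and Ngp were above background on 0 sham and on 5 PPE arrays. Both are in the list mean and among the 8 called, and their calls were bound to be increases. With median centring 3 of the 10 macrophage, 4 of the 10 neutrophil and 1 of the 7 dendritic genes passed. Over all names 13.8% were higher with loess and 1.81% with median centring. The part of these cell markers in the Clec differences was not tested, and these lists share the arrays with the Clec genes.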

How the data were processed

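Infrarenal aortic RNA of 5 sham and 5 PPE mice was hybridized against universal mouse reference RNA on 2-colour Agilent arrays, without dye swap. The authors removed arrays of poor hybridization and outliers seen by clustering and principal components, and which ones is not stated. Spots were quantified by them in Agilent Feature Extraction 10.7.3.1. The deposited spot and background signals are linear intensity values, and the deposited series values are log2 ratios of processed red over processed green signal, which held on 100% of 59305 spots within 1e-04. The control type column served to leave out control spots.

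Mean signals were corrected by normexp with an offset of 50 against the median local background and normalized within arrays by loess (R 4.3.3, limma 3.58.1). The offset draws ratios of dim probes towards 0. Spots of a probe were averaged, and outlier spots (176 to 331 per array) were left out. Probes entered the test where 5 or more arrays had them clearly over the red background, and a gene is its brightest tested probe. Groups were compared with limma, two-sided and unpaired, with Benjamini-Hochberg adjustment over all 22520 names and a threshold of 0.01. The study's own test (SAM) was not run. Intervals are 95% intervals from limma. A bound ("at least") is taken in the red channel after loess and Aquantile, against the lowest signal well above background. The number of arrays limits the precision.

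Members and gene lists were chosen with earlier results of these data known. All 32 members were named, and 1 gene of the other lists is not reported here. Probe positions are on mm9, and promoter sequences are from RefSeq (GRCm38.p6). Alternatives were other normalizations, filters and probe rules, slide, scan day and replicate number as blocks, each array left out and, chosen after seeing the data, the red channel alone.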

Additional observations from a re-analysis of the deposited data

Results flagged for a closer look

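In 3 of 44 groups of 5 arrays, 1 array stood apart by Dixon's test, and chance alone flags about 5% of groups. Clec12b was high on sham 1 (0.96, the next sham array at 0.29; gap over range 0.888). Clec2e was low on PPE 5 (0.08, the next at 0.58; 0.761). Clec4g was high on PPE 2 (2.32, the next at 0.64; 0.753). None of these 3 genes was called, and the values on the other arrays of each group lay close together.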

How the results depend on the processing

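Clec4d, Clec7a, Clec4a3 and Clec4e were called higher under all 20 other settings and in the red channel alone. With median centring in place of loess the Clec genes called higher numbered 4, all of them myeloid (4), and Clec4a1, Clec4a4, Clec4b1, Clec4n, Clec9a and Clec2i lost their call. That setting moved the median of all names to 0.41, left 408 higher and 8 lower over all names, and turned Clec16a to 0.15 and Clec3b to 0.10; the cause was not tested. Clec3b made the count of lower genes 1 with the scan day as a block and in the red channel alone (1). With the processed signals Clec11a was at -0.055 and Clec1b at -0.30. Clec1b, near 0, also turned with the filter of all 10 arrays (-0.085), slide block (-0.0732), scan day block (-0.0806) and red channel alone (-0.19), and ranged from -0.14 to 0.35 with 1 array left out. Clec2i kept its call in 10 of those 20.

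Deviations of same-numbered arrays from their group means correlated at 0.29, -0.30, 0.16, -0.14 and 0.52 for numbers 1 to 5. Not every pair deviated together and the labels give the numbers no meaning, so they were not taken as pairs. With a replicate block 21 members kept their side of the threshold and Clec10a was called (1.04, limma adjusted p 0.0022); the count higher was 11 with the paired fit. Members below background on most arrays were not tested, and the number of arrays limits the rest.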
